A study of Homo sapiens with 12 samples.

Results

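The genes described here are 10 cytokine and chemokine genes that are well-known targets of the transcription factor NF-kB: IL6, LIF, IL1A, IL1B, CXCL8, CXCL1, CXCL2, CXCL3, CCL2 and CCL20. They were taken by symbol from the table of raw gene counts, in which they are 10 of 17085 genes. Of the 10 genes, 9 were counted well enough to be tested. IL1A had no count in any library, and IL1B was tested on few counts.

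The libraries came from 786-O, an established human clear cell renal carcinoma line, and the study asked how the drugs SGI-1027 and everolimus act together on such cells. The 12 libraries formed 4 groups of 3: cells given the vehicle DMSO (the DMSO group), everolimus at 5 µM (the everolimus group), SGI-1027 at 1.5 µM (the SGI-1027 group), or everolimus at 5 µM with SGI-1027 at 1.5 µM (the combination group). Treatment lasted 24 h in each group, and the cells, of 1 cell line and wild-type genotype, grew in the same serum-supplemented medium. Everolimus is an inhibitor of mTOR complex 1, and SGI-1027 is a quinoline compound known as an inhibitor of DNA methyltransferases. The sources disagree on 1 dose. The treatment field of each everolimus library gives 5 µM, as do the methods of the paper that reported the data. The protocol text of the records gives 10 µM for everolimus alone. A comparison of everolimus alone with the combination, and the interaction, may thus hold a difference in dose. Nothing in the records tells if the 3 libraries of 1 group were made from separate cultures, and the p-values measure only the spread between these libraries, which may be technical.

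NF-kB is a family of paired DNA-binding proteins that inhibitor proteins hold in the cytoplasm of a resting cell. Signals from interleukin-1, tumour necrosis factor and Toll-like receptors activate a kinase complex that marks the inhibitors for destruction, and NF-kB then enters the nucleus and binds short sites near the starts of its target genes. Cytokine genes are among its most quickly induced targets, together with genes of its own inhibitors, and in renal carcinoma their products draw neutrophils and monocytes and act on the tumour cells themselves.

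Each library held between 37046231 and 41516976 counts, of which the 10 genes took 764 to 911 CPM (counts scaled to a common library total, with trimmed-mean factors of 0.99 to 1.01). All 9 markers of renal tubule and renal carcinoma cells were counted in every group, with a summed level of 3951 to 4694 FPKM (counts scaled by gene length and library total), PAX8 and VIM among them. Markers of endothelium and fibroblasts summed to at most 0.105 and 0.530 FPKM in any library. The blood cell markers summed to 19.2 to 27.3 FPKM in the DMSO group and 60.7 to 65.8 FPKM in the combination group, nearly all of it from CD68, a lysosomal glycoprotein that many cell types hold, which went from a mean of 23.0 FPKM to 63.0 FPKM. The defining leukocyte genes PTPRC and CD3E had 2 counts and 1 count in the 12 libraries together. The part of CD68 in the results was not tested. DMSO replicate 1 and SGI-1027 replicate 3 each stood apart from the other libraries of their own group. The chi-square per gene between replicates was 16.1 and 16.4 for SGI-1027 replicate 3 and 10.1 and 12.9 for DMSO replicate 1, and 3.04 to 5.46 for all other pairs. Without DMSO replicate 1 the number of members called was 4, 5 and 8 in the everolimus, SGI-1027 and combination groups against DMSO, and without SGI-1027 replicate 3 it was 5, 6 and 7. Counts are shares of a library, so a change in a gene's RNA per cell and a change in the number of cells that make it cannot be told apart here. The paper reports that the combination raised the release of lactate dehydrogenase, a sign of membrane damage, well before the time of RNA extraction. Neither drug alone did so in that assay. How far cell death shaped the combination libraries, and with them their comparisons and the interaction, was not tested.

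NF-kB sites close to the start are what many of these genes are known for, and the 120 bases before the annotated start are shown for the 6 genes in which such a site was matched. They are RefSeq sequences of build GRCh38.p14, 5′ to 3′ on the strand of the gene, and capitals mark a match to 1 of 2 forms of the NF-kB site, the long form GGG, any 2 bases and TTTCC, and the short form GGAATTTCC, both searched on both strands.
IL6, chr7:22727080-22727199, plus strand: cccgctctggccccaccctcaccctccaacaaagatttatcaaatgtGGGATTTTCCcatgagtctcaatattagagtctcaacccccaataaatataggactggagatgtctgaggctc
CXCL8, chr4:73740449-73740568, plus strand: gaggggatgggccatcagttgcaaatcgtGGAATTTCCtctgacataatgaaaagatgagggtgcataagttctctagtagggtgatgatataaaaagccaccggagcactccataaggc
CXCL1, chr4:73869273-73869392, plus strand: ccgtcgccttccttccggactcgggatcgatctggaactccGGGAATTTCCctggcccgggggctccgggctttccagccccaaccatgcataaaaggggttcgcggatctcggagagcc
CXCL2, chr4:74099196-74099315, minus strand: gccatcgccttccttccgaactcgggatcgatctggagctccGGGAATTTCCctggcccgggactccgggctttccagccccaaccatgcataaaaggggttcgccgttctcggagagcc
CXCL3, chr4:74038690-74038809, minus strand: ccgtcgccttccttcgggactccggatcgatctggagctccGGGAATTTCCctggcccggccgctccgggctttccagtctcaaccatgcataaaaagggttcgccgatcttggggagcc
CCL20, chr2:227813722-227813841, plus strand: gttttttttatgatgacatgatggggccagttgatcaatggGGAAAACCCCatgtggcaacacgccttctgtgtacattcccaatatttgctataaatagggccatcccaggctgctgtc

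In these windows the match lay within 100 bases of the start in each of the 6 genes. With bases counted back from the start, it spanned positions -73 to -64 in IL6, -91 to -83 in CXCL8, -79 to -70 in CXCL1, CXCL3 and CCL20, and -78 to -69 in CXCL2. The match of CCL20 was on the opposite strand, and in CXCL1, CXCL2 and CXCL3 the short form lay inside the long one. Over the 250 bases before the start, 2.0% of 35116 RefSeq promoters held either form, 1.73% the long form and 0.413% the short form. The AP-1 form TGANTCA was in 6.57% of them and, among these 6 genes, in CXCL8 at -137 to -131. Of the 10 genes, 8 had a promoter entry. The windows of IL1A and IL1B held neither NF-kB form. A match of letters is a description of the sequence, and binding was not measured.

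CXCL1, CXCL2 and CXCL3 arose by duplication and remain alike, which bears on how their reads were counted. Their 120-base promoter windows were 93.4% (CXCL1 and CXCL2), 90.8% (CXCL1 and CXCL3) and 88.5% (CXCL2 and CXCL3) identical. Their transcripts were 80.4%, 71.2% and 67.5% identical in the same order, with longest shared runs of 77, 55 and 97 bases in GENCODE 29. Against CXCL8 the longest run was 18 bases. How reads that match several copies were assigned is not given in the sources used here, so the split of counts among these 3 genes is uncertain.

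In untreated cells the group was dominated by chemokines that attract neutrophils. On the FPKM scale, which divides by gene length and so allows genes to be compared, the DMSO group had 238 ± 11.6 (SD, n = 3) for CXCL1 and 170 ± 15.1 for CXCL8 (interleukin-8), both ligands of the neutrophil receptor CXCR2. LIF followed with 33.5 ± 3.03 FPKM, CCL2 with 23.2 ± 3.01 FPKM and IL6 with 23.0 ± 1.43 FPKM, and the libraries of CCL2 and IL6 overlapped. CXCL2 had 13.9 ± 1.19 FPKM, CXCL3 had 6.85 ± 0.814 FPKM and CCL20 had 5.96 ± 0.674 FPKM, the libraries of the last pair overlapping. IL1B stood at 0.856 ± 0.356 FPKM, and IL1A was listed at 0. In each treated group CXCL1 and CXCL8 kept ranks 1 and 2, while IL6 moved from rank 5 to rank 3.

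**Figure D1:**
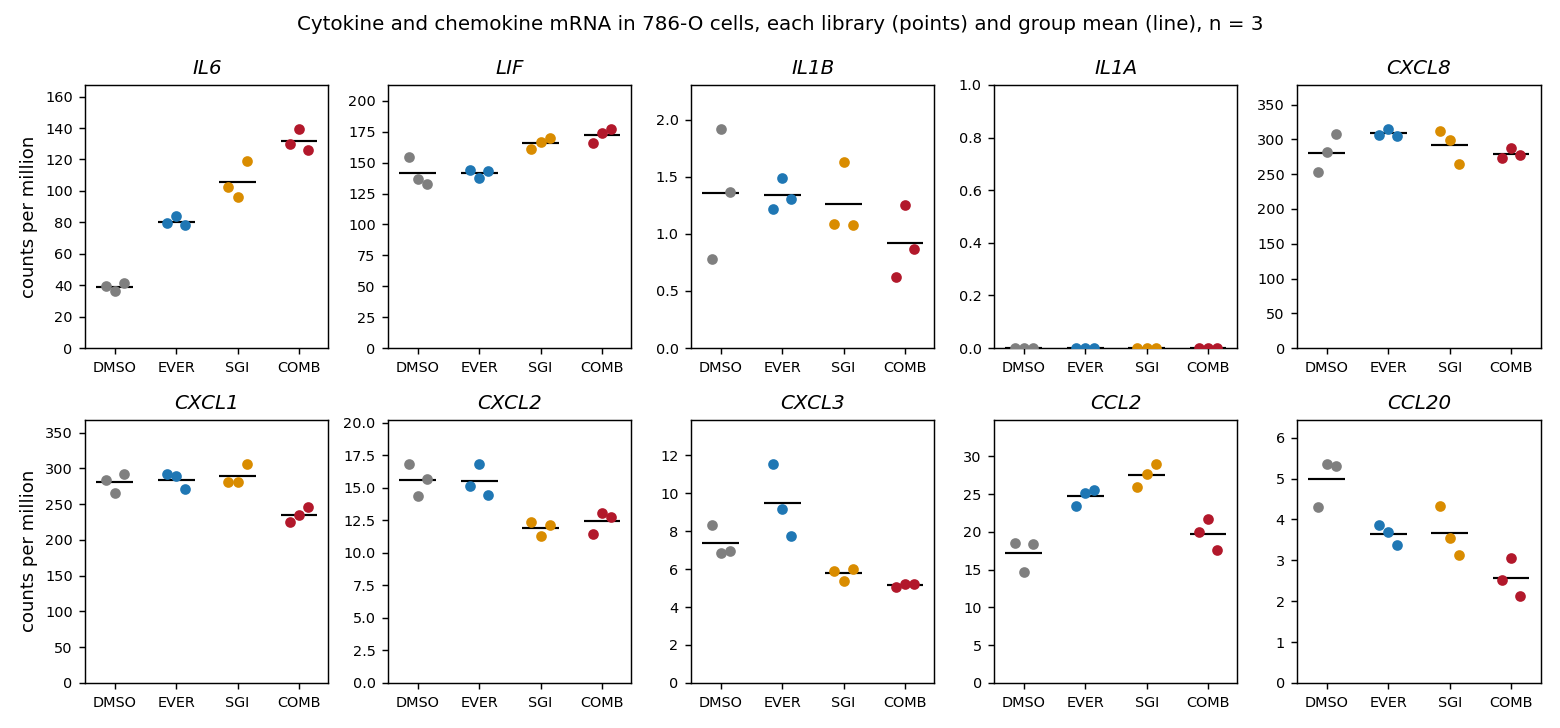
Level in CPM (vertical axes, each from 0) of the 10 genes in each of the 12 libraries, by treatment group on the horizontal axis (EVER, everolimus; SGI, SGI-1027; COMB, both), with points for libraries and a line for the mean of 3. IL6 stepped up from group to group with no overlap, CCL20 was lowest in the combination group, CCL2 was raised with either drug alone, and IL1A had no counts.

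The question for each treated group was which of these genes differed from the DMSO group, whose 3 libraries all 3 comparisons share. A gene was called higher or lower at an adjusted p under 0.05 in edgeR's quasi-likelihood test over all 12841 tested genes. With everolimus 4 of the 9 genes were called (IL6, CCL2 and CXCL3 higher, CCL20 lower), where 56.4% of all genes were called, 27.2% higher and 29.2% lower. With SGI-1027 6 were called (IL6, CCL2 and LIF higher, CXCL2, CXCL3 and CCL20 lower), against 62.6% of all genes, 32.0% higher and 30.6% lower. With the combination 6 were called (IL6 and LIF higher, CXCL1, CXCL2, CXCL3 and CCL20 lower), against 66.2% of all genes, 32.8% higher and 33.4% lower. Being called was therefore common among all genes, and the number of members called stands close to that background. IL6 alone also passed an absolute log2 fold change of 1 in each of these 3 comparisons, as did 4.49%, 7.15% and 9.83% of all genes. Single libraries decide this near the limit: without DMSO replicate 2 the IL6 change with everolimus was 0.995, and CCL20 with the combination passed 1 in size without DMSO replicate 1 (-1.05) or combination replicate 2 (-1.09). The libraries of a treated group and the DMSO group did not overlap in 3, 5 and 6 of the 9 genes, beside 62.9%, 63.2% and 69.2% of all genes. The median log2 fold change of the 9 genes was 0.02, 0.05 and -0.26 in the groups given everolimus, SGI-1027 or both, beside 0.00, 0.02 and 0.01 over all genes.

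**Figure D2:**
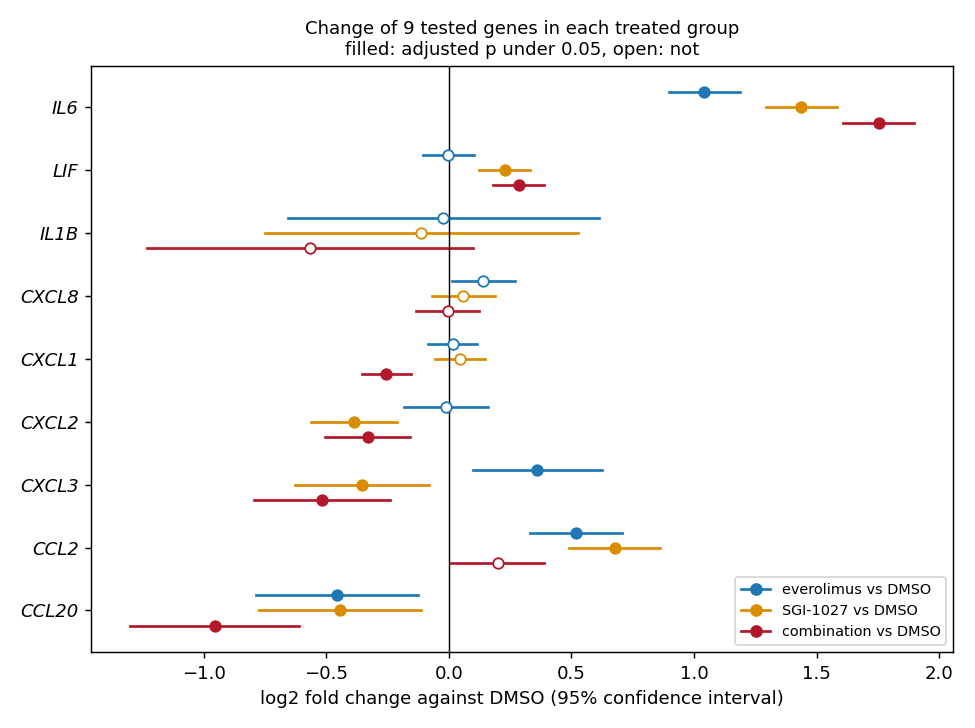
Log2 fold change against the DMSO group (horizontal axis) of the 9 tested genes (rows), with 95% confidence intervals as lines, blue for everolimus, orange for SGI-1027 and red for the combination, and filled points where the adjusted p was under 0.05. IL6 lies far to the right in all 3 comparisons, the CXC chemokines and CCL20 lie at or left of 0 in the combination group, and the intervals of IL1B are the widest.

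IL6 encodes interleukin-6, a cytokine that signals through gp130 and STAT3 and drives the acute-phase response. Its level rose with each drug and was highest with both. The DMSO libraries held 39.3, 36.6 and 41.5 CPM, and the everolimus libraries 79.6, 83.9 and 78.1 CPM. The SGI-1027 libraries held 102.8, 95.8 and 119 CPM, and the combination libraries 129.8, 139.5 and 126 CPM. The 4 groups stood in 4 separate ranges, with the DMSO libraries lowest and the combination libraries highest. The change against DMSO was a log2 fold change of 1.04 ± 0.07 (SE, adjusted p = 8.57e-10) with everolimus, 1.44 ± 0.07 (adjusted p = 7.14e-12) with SGI-1027 and 1.75 ± 0.07 (adjusted p = 2.49e-13) with the combination, or 2.06-fold, 2.71-fold and 3.37-fold. Ranked by log2 fold change among the 12841 genes, IL6 was number 490, 396 and 277. The IL6 change with SGI-1027 was 1.34 without SGI-1027 replicate 3 and 1.44 without DMSO replicate 1, and it was called both times.

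The treated groups also differed from each other in IL6. The combination exceeded everolimus by 0.71 ± 0.07 on the log2 scale (adjusted p = 1.02e-07) and SGI-1027 by 0.32 ± 0.07 (adjusted p = 0.00198), and SGI-1027 exceeded everolimus by 0.39 ± 0.07 (adjusted p = 0.000285). On the opposite strand over IL6 lies STEAP1B, which had 2 to 22 counts a library, where IL6 had at least 1463. A second antisense gene over IL6, AC073072.1, is not in the count table, so its share of reads was not measured. Whether the counting used strand is not given in the sources used here.

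LIF encodes leukemia inhibitory factor, a cytokine of the interleukin-6 family that also signals through gp130. Its level was higher in both groups that received SGI-1027. The libraries held 154.7, 137 and 133 CPM in the DMSO group and 143.7, 137 and 143 CPM in the everolimus group. With SGI-1027 they held 161, 167 and 169.8 CPM, and with the combination 166, 174 and 177 CPM. The DMSO and everolimus libraries overlapped, and all 6 libraries with SGI-1027 lay above them. The log2 fold change against DMSO was 0.23 ± 0.05 (adjusted p = 0.00059) with SGI-1027 and 0.28 ± 0.05 (adjusted p = 6.02e-05) with the combination. It was -0.00 with everolimus, with a 95% interval from -0.11 to 0.10. The combination did not pass the test against SGI-1027 (0.06, interval -0.05 to 0.16, adjusted p = 0.484). The antisense genes LIF-AS1 and AC004264.1 overlap LIF in GENCODE 29 and are not in the count table.

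The interleukin-1 genes were barely expressed. IL1B encodes interleukin-1 beta, which an inflammasome must cleave before release, and IL1A encodes interleukin-1 alpha, which is active without that step. IL1B had 29, 79 and 52 counts in the DMSO libraries, 45, 61 and 50 with everolimus, 43, 60 and 42 with SGI-1027 and 24, 50 and 33 with the combination. These ranges overlapped, and the DMSO libraries varied with a coefficient of variation of 42.2%. The log2 fold change with the combination was -0.57, with a 95% interval from -1.23 to 0.10 (adjusted p = 0.121), so neither a fall of more than 2-fold nor no change was excluded at this depth. Without DMSO replicate 1 it was -0.83 (adjusted p = 0.0205), and without combination replicate 2 it was -0.86 (adjusted p = 0.0455). IL1A had 0 counts in 464756756 counts of all 12 libraries, which allows up to 3 counts or 0.00645 CPM over the series and 0.0729 to 0.0813 CPM in a single library, for counting error only.

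CXCL8, the most widely known neutrophil chemokine, had no called change in the 6 pairwise comparisons, of which 3 gained a call under other settings. Its libraries held 253, 281 and 307 CPM in the DMSO group, 306.7, 315 and 305 with everolimus, 312, 299.5 and 265 with SGI-1027, and 274, 288 and 277 with the combination. All treated groups overlapped the DMSO group, whose own libraries spanned the widest range. The log2 fold change was 0.14 (95% interval 0.01 to 0.27, adjusted p = 0.0599) with everolimus, 0.06 (-0.07 to 0.19, adjusted p = 0.411) with SGI-1027 and -0.00 (-0.13 to 0.12, adjusted p = 0.951) with the combination. The everolimus value passed the threshold without DMSO replicate 3 (0.21, adjusted p = 0.007), without SGI-1027 replicate 3 (0.14, adjusted p = 0.015) and with upper-quartile scaling (0.21, adjusted p = 0.00642). It also passed with no filter on low counts, with a stricter filter and with the compared groups fitted alone (0.13 to 0.15, adjusted p of 0.0264 to 0.0486). The SGI-1027 value passed it without SGI-1027 replicate 3 (0.12, adjusted p = 0.046). The combination against everolimus (-0.14, adjusted p = 0.0700) passed it when DMSO replicate 1, DMSO replicate 3 or SGI-1027 replicate 3 was left out (adjusted p of 0.0168 to 0.0482), with the compared groups fitted alone (adjusted p = 0.000197), with upper-quartile factors (adjusted p = 0.0427) and with no filter (adjusted p = 0.0328).

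CXCL1, a ligand of CXCR2 and on the FPKM scale the most highly expressed of the 10 genes, was lower in the combination group and in no single-drug group. The DMSO libraries held 284, 266 and 292 CPM, the everolimus libraries 292, 289 and 270.4 CPM and the SGI-1027 libraries 281, 281 and 307 CPM. The combination libraries held 225, 234 and 246 CPM. All 3 combination libraries lay below the other 9, which overlapped each other. The combination differed by -0.26 ± 0.05 on the log2 scale from DMSO (adjusted p = 0.000135), by -0.27 ± 0.05 from everolimus (adjusted p = 0.000185) and by -0.30 ± 0.05 from SGI-1027 (adjusted p = 0.000171). The single-drug changes were 0.02 (95% interval -0.09 to 0.12) and 0.05 (-0.06 to 0.15).

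CXCL2, the closest relative of CXCL1, was lower in both groups with SGI-1027. It had 16.8, 14.4 and 15.7 CPM in the DMSO libraries, 15.1, 16.9 and 14.4 with everolimus, 12.3, 11.3 and 12.1 with SGI-1027, and 11.4, 13 and 12.7 with the combination. The 6 libraries with SGI-1027 lay below the 6 without it. The log2 fold change against DMSO was -0.39 ± 0.08 (adjusted p = 0.00054) with SGI-1027 and -0.33 ± 0.08 (adjusted p = 0.00179) with the combination, while with everolimus it was -0.01 (95% interval -0.18 to 0.16). The combination and SGI-1027 groups overlapped and differed by 0.06 (interval -0.12 to 0.23).

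CXCL3 encodes another CXCR2 ligand, and it was called in opposite directions with the single drugs. Its libraries held 8.32, 6.87 and 6.96 CPM in the DMSO group, 11.6, 9.16 and 7.73 with everolimus, 5.93, 5.39 and 6.0 with SGI-1027, and 5.05, 5.19 and 5.20 with the combination. The everolimus libraries were the most spread and overlapped the DMSO libraries, and all 6 libraries with SGI-1027 lay below both. The change against DMSO was 0.36 ± 0.12 (adjusted p = 0.0197) with everolimus, -0.35 ± 0.13 (adjusted p = 0.0248) with SGI-1027 and -0.52 ± 0.13 (adjusted p = 0.00205) with the combination. The everolimus call rested on single libraries: it was lost without everolimus replicate 1 (0.20, adjusted p = 0.181), and when DMSO replicate 2 or 3 was left out it was 0.31 (adjusted p = 0.0778) or 0.32 (adjusted p = 0.0668). The decrease with SGI-1027 no longer passed when DMSO replicate 1 was left out (-0.26, adjusted p = 0.114), nor without SGI-1027 replicate 2 (-0.31, adjusted p = 0.0813). The difference between SGI-1027 and everolimus was -0.71 ± 0.13 (adjusted p = 0.000492), and between the combination and everolimus -0.88 ± 0.13 (adjusted p = 2.52e-05).

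CCL2 encodes monocyte chemoattractant protein 1, which draws monocytes through CCR2. It was higher with either drug alone, and with both drugs it lay near the DMSO level. The DMSO libraries held 18.6, 14.7 and 18.4 CPM, the everolimus libraries 23.4, 25.1 and 25.5 CPM, the SGI-1027 libraries 25.9, 27.7 and 29.04 CPM, and the combination libraries 20.04, 21.7 and 17.6 CPM. All single-drug libraries lay above the DMSO and combination libraries, which overlapped. The change against DMSO was 0.52 ± 0.09 (adjusted p = 7.59e-05) with everolimus and 0.68 ± 0.09 (adjusted p = 2.88e-06) with SGI-1027. With the combination it was 0.20 (95% interval 0.01 to 0.39, adjusted p = 0.0606), which passed the threshold without combination replicate 3 (0.28, adjusted p = 0.0172) and when DMSO replicate 1, DMSO replicate 3 or SGI-1027 replicate 3 was left out (0.20 to 0.26, adjusted p of 0.0265 to 0.0442). It also passed with upper-quartile factors (adjusted p = 0.0176) and with at least 10 counts in every library (adjusted p = 0.0478).

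The combination was lower in CCL2 than each single drug. It differed from SGI-1027 by -0.48 ± 0.09 (adjusted p = 0.000671) and from everolimus by -0.32 ± 0.09 (adjusted p = 0.0073), and the second call was lost without combination replicate 3 (-0.24, adjusted p = 0.0539). SGI-1027 and everolimus did not pass the test against each other (0.16, 95% interval -0.02 to 0.34, adjusted p = 0.203), although their libraries did not overlap. No other annotated gene overlaps CCL2 in GENCODE 29.

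CCL20 encodes the ligand of CCR6, which draws dendritic cells and Th17 lymphocytes. Its level fell with each drug and was lowest with both. It had 4.29, 5.37 and 5.32 CPM in the DMSO libraries, 3.86, 3.69 and 3.37 with everolimus, 4.34, 3.55 and 3.13 with SGI-1027, and 2.53, 3.06 and 2.13 with the combination, from 81 to 221 counts. The combination libraries lay below the other 9, and 1 SGI-1027 library overlapped the DMSO range. The log2 fold change was -0.96 ± 0.16 (adjusted p = 4.84e-05) with the combination, -0.46 ± 0.16 (adjusted p = 0.0193) with everolimus and -0.44 ± 0.16 (adjusted p = 0.0203) with SGI-1027. The combination differed from everolimus by -0.50 (adjusted p = 0.0239) and from SGI-1027 by -0.51 (adjusted p = 0.0382).

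The single-drug calls of CCL20 were less firm than that of the combination. The decrease with everolimus no longer passed when DMSO replicate 2 or 3 or everolimus replicate 3 was left out (adjusted p of 0.0637 to 0.0727). The decrease with SGI-1027 no longer passed when replicate 2 or 3 of either DMSO or SGI-1027 was left out (adjusted p of 0.0532 to 0.0843). The call of the combination against everolimus was lost without everolimus replicate 1 or 2 or combination replicate 1 or 3 (adjusted p of 0.0602 to 0.114). That against SGI-1027 was lost without SGI-1027 replicate 1 or 2 or combination replicate 1 or 3 (adjusted p of 0.0609 to 0.174).

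The treated groups were also compared with each other. The combination differed from everolimus in 7 of the 9 genes, IL6 and LIF higher and CXCL1, CXCL2, CXCL3, CCL2 and CCL20 lower, where 39.3% of all genes were called, 20.1% higher and 19.2% lower. It differed from SGI-1027 in 4, IL6 higher and CXCL1, CCL2 and CCL20 lower, where 19.6% of all genes were called, 9.40% higher and 10.2% lower. SGI-1027 differed from everolimus in 4, IL6 and LIF higher and CXCL2 and CXCL3 lower, where 22.5% of all genes were called, 13.0% higher and 9.51% lower. In the same order the libraries did not overlap in 8, 5 and 5 of the 9 genes, beside 54.2%, 34.6% and 39.5% of all genes. None of these differences reached an absolute log2 fold change of 1, and the count of 0 stands against 3.61%, 1.27% and 1.43% of all genes.

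Whether the combination equals the sum of the single-drug changes was tested by the interaction term of the 4 groups on the log2 scale. It was negative and called in 4 of the 9 genes, IL6, CCL2, CXCL1 and CXCL3, and called positive in none of them, where 45.6% of all genes were called in either direction, 23.6% positive and 22.1% negative. None of the 9 interactions reached 1 in size, beside 5.18% of all genes called at that size, but the CCL2 value lay at the limit and ran from -1.07 to -0.89 as single libraries were left out. For IL6 the single-drug log2 changes summed to the equivalent of 5.58-fold and the combination gave 3.37-fold, an interaction of -0.73 ± 0.10 (adjusted p = 7.73e-06). For CCL2 they summed to the equivalent of 2.29-fold and the combination gave 1.15-fold, an interaction of -1.00 ± 0.12 (adjusted p = 4.53e-06). These expected values are products of fold changes, and additivity on the CPM scale was not tested. The 2 genes differ in what the combination did: IL6 was higher with both drugs than with either, and CCL2 was lower with both than with either.

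CXCL1 had an interaction of -0.32 ± 0.07 (adjusted p = 0.000941), and neither drug alone gave a called change. CXCL3 had an interaction of -0.53 ± 0.18 (adjusted p = 0.0257), which was lost without DMSO replicate 2, DMSO replicate 3, everolimus replicate 1, SGI-1027 replicate 1 or combination replicate 1 (adjusted p above the threshold, up to 0.0887). For CXCL8 it was -0.20 (95% interval -0.39 to -0.02, adjusted p = 0.063), and it passed the threshold without DMSO replicate 3 (adjusted p = 0.0112) or SGI-1027 replicate 3 (adjusted p = 0.00336), with upper-quartile factors (adjusted p = 0.0145) or with at least 10 counts in every library (adjusted p = 0.049). The combination lay close to the summed changes for LIF (interaction 0.06, interval -0.09 to 0.20), CXCL2 (0.07, -0.18 to 0.31) and CCL20 (-0.06, -0.54 to 0.43).

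**Figure D3:**
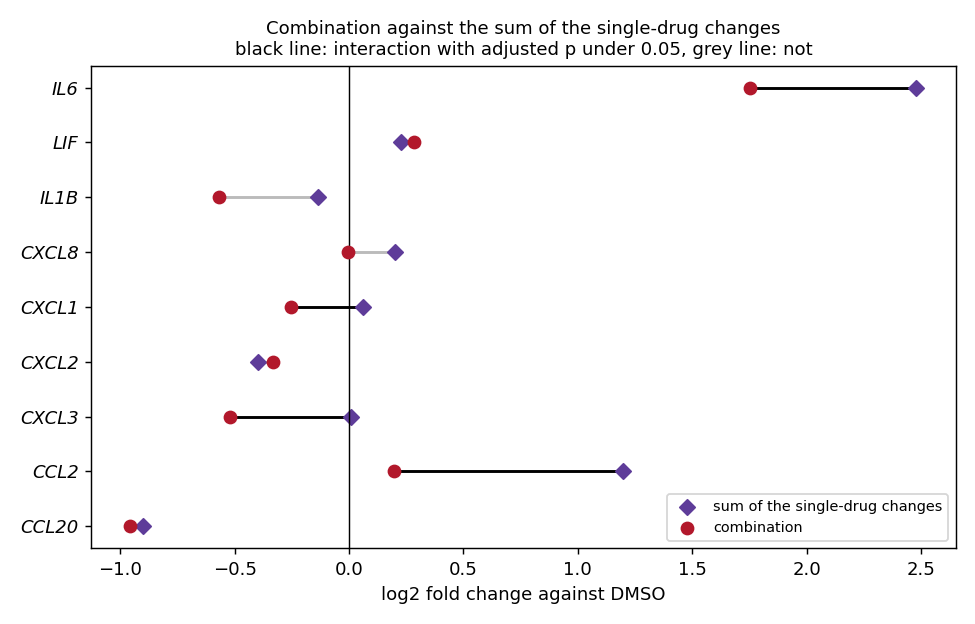
Log2 fold change against the DMSO group (horizontal axis) of the 9 tested genes (rows), with the sum of the everolimus and SGI-1027 changes as diamonds and the combination as circles, joined by a black line where the interaction had an adjusted p under 0.05. The circle lies left of the diamond for IL6, CCL2, CXCL1 and CXCL3, and the symbols nearly meet for LIF, CXCL2 and CCL20.

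The sum of the 10 genes and the share of each in it were taken on the FPKM scale. The 10 genes summed to 515 ± 22.2 FPKM (SD, n = 3) in the DMSO group, 572 ± 16.5 under everolimus, 582 ± 7.66 under SGI-1027 and 540.4 ± 15.3 under both. Within that sum CXCL1 and CXCL8 together took 79.2% ± 1.26, 75.1% ± 0.225, 72.6% ± 1.19 and 69.2% ± 1.01 in the same order. IL6 took 4.46% ± 0.115, 8.30% ± 0.185, 10.7% ± 1.05 and 14.5% ± 0.607. Without IL6 the sum was 492 ± 20.8 FPKM in the DMSO group, 524 ± 14.7 under everolimus, 519.8 ± 4.86 under SGI-1027 and 462 ± 12.9 under both.

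**Figure D4:**
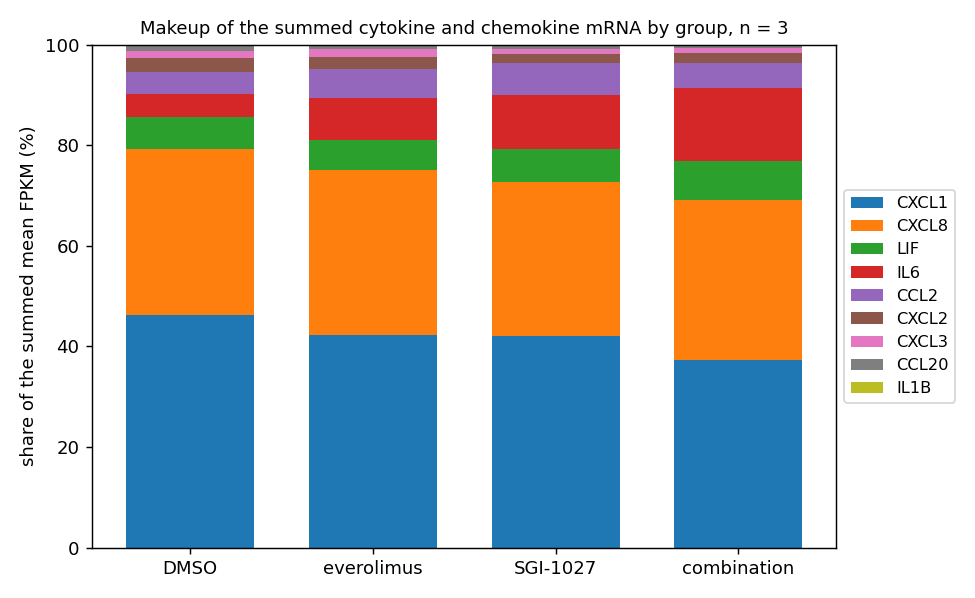
Share of each gene in the summed mean FPKM of the group (vertical axis, percent), by treatment group, with 1 colour for each gene and n = 3 libraries a group. The IL6 segment widens from 4.46% in the DMSO group to 14.5% in the combination group while the CXCL1 segment narrows from 46.2% to 37.4%. The CXCL8 segment stays between 30.4% and 33.0%.

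The other genes of the pathway were taken from 10 lists, counted at the same threshold. Of all genes, 32.8% were higher and 33.4% lower with the combination, 27.2% and 29.2% with everolimus, and 32.0% and 30.6% with SGI-1027. Among 17 tested receptors and adaptors upstream of NF-kB, 9 were higher and 6 lower with the combination, 3 and 4 with everolimus, and 8 and 6 with SGI-1027. TNFRSF1A, the main receptor of tumour necrosis factor, fell by 0.70 on the log2 scale with the combination (adjusted p = 2.26e-09). Of the kinases that carry the interleukin-1 signal, IRAK1 fell by 0.45 (adjusted p = 3.09e-09) and IRAK2 rose by 0.85 (adjusted p = 2.67e-08).

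Of the 13 NF-kB subunits and activating kinases, 4 were higher and 7 lower with the combination, with a median log2 fold change of -0.18. NFKB2, the precursor of p52, rose by 0.28 ± 0.04, IKBKB, a catalytic subunit of the IkB kinase complex, rose by 0.44 ± 0.07, and TAB2, an adaptor of the kinase TAK1, changed by -0.46 ± 0.04. With everolimus 2 were higher and 4 lower, and with SGI-1027 3 were higher and 3 lower.

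The 16 inhibitors and feedback regulators went both ways, 5 higher and 4 lower with the combination. TNFAIP3 encodes A20, a ubiquitin-editing enzyme that NF-kB induces and that restrains it. It had 39.5 CPM in the DMSO group, 68.7 under everolimus, 93.6 under SGI-1027 and 135 under both, and rose by 0.80 ± 0.05, 1.25 ± 0.05 and 1.78 ± 0.05 on the log2 scale (adjusted p = 7.61e-10, 1.34e-12 and 5.91e-15). Its levels followed the same order of groups as those of IL6. CYLD, a deubiquitinase that also restrains NF-kB, rose by 0.83 ± 0.06 with the combination. BCL3, a nuclear member of the IkB family, went from 68.4 CPM in the DMSO group to 20.9 CPM with the combination (-1.71 ± 0.11, adjusted p = 2.39e-10). NFKBIA, which encodes IkB alpha and is a classical early target, had 124, 133, 126 and 123 CPM, and its changes of 0.10, 0.03 and -0.00 did not pass the test (adjusted p of 0.105, 0.627 and 0.96).

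Among 16 tested NF-kB targets that are not cytokines, 12 were higher and 3 lower with the combination, 10 and 1 with everolimus, and 8 and 2 with SGI-1027. Their median log2 fold change with the combination was 0.31, beside 0.01 over all genes. PLAU, which encodes urokinase, rose by 1.33 ± 0.05 with the combination, from 111 to 279 CPM. SOD2, the mitochondrial superoxide dismutase, rose by 0.70 ± 0.04, and TNFAIP2 rose by 0.60 ± 0.04 with the combination and by 0.85 ± 0.04 with SGI-1027 alone. The 3 genes lower with the combination were ICAM1 (-0.48, adjusted p = 2.79e-07), BIRC3 (-0.38, adjusted p = 1.51e-05) and IER3 (-0.29, adjusted p = 2.29e-05). ICAM1 was also lower with everolimus (-0.57) and with SGI-1027 (-0.51).

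Of the receptors and antagonists of the 10 ligands 10 were tested, and 7 were lower and 1 higher with the combination, 5 and 0 with everolimus, and 3 and 1 with SGI-1027. LIFR, the receptor of LIF, fell by 0.72 on the log2 scale with the combination (adjusted p = 6.15e-09), where its ligand was higher. IL1R1, the signalling receptor of interleukin-1, fell by 0.49 (adjusted p = 6.46e-07). SIGIRR, an inhibitory receptor of the same family, rose by 1.75 ± 0.24 from a level of 0.642 CPM. The chemokine receptors CXCR1 and CXCR2 had 0 and 3 counts in all 12 libraries.

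Factors that act beside NF-kB at these promoters changed in both directions. Of 10 AP-1 and C/EBP factors, 5 were higher and 4 lower with the combination. FOSB rose by 2.69 ± 0.29 from 0.471 CPM, FOS fell from 3.41 CPM by 1.84 on the log2 scale, and FOSL2, the most abundant of these 3, fell from 491 CPM by 0.38. Of 13 regulators that bind AU-rich or stem-loop elements in cytokine mRNAs, 4 were higher and 5 lower. ELAVL1, which stabilises such mRNAs, fell by 0.54 (adjusted p = 4.69e-10), HNRNPD, known as AUF1, fell by 0.50 (adjusted p = 1.30e-08) and ZC3H12C, of the regnase family, rose by 0.62 (adjusted p = 9.29e-09).

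Downstream of IL-6 and LIF, 4 of 11 genes of JAK and STAT3 signalling were higher with the combination and 5 lower. PIM1, a kinase gene that STAT3 induces, rose by 1.07 ± 0.08 with the combination, from 20.6 to 43.3 CPM, and by 1.01 ± 0.08 with everolimus alone. STAT3 itself fell by 0.37 (adjusted p = 2.95e-07), and PTPN11, which encodes the phosphatase SHP2, fell by 0.49 (adjusted p = 4.43e-08). SOCS3 and CISH, of the same list, changed by -0.71 (adjusted p = 3.92e-07) and -1.08 (adjusted p = 1.59e-05) with the combination. Besides PIM1, the genes of the list called higher with the combination were BCL6 (0.70), JAK2 (0.40) and TYK2 (0.23). With the single drugs SOCS3 changed by -0.38 (everolimus) and -0.82 (SGI-1027). Genes for interleukin-1 maturation and release were mostly higher while the interleukin-1 genes were at or near 0: 6 of 7 tested were higher and 0 lower with the combination. The numbers higher and lower were 4 and 1 with everolimus, and 5 and 1 with SGI-1027. PYCARD, of the same list, is not in the count table. NLRP1, an inflammasome sensor, rose by 2.38 ± 0.10 with the combination, and by 1.22 with everolimus and 1.88 with SGI-1027. The pore-forming gasdermins GSDME and GSDMD rose by 0.83 ± 0.05 and 0.73 ± 0.05 with the combination. They rose by 0.48 and 0.53 with everolimus, and by 0.51 and 0.65 with SGI-1027.

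Other cytokines and chemokines were counted in the same way. Of 41 such genes 24 could be tested, and 10 were higher and 6 lower with the combination, 12 and 3 with everolimus, and 12 and 3 with SGI-1027. CSF1, the macrophage growth factor, fell by 1.01 on the log2 scale, from 368 to 183 CPM. CSF2, the granulocyte and macrophage growth factor GM-CSF, rose by 1.07 ± 0.05, from 34.6 to 72.6 CPM, and its interaction was positive (0.57 ± 0.08, adjusted p = 1.19e-05). CX3CL1, or fractalkine, fell by 1.18 (adjusted p = 2.86e-10). Among the 24 tested genes the interaction was called positive in 3 and negative in 13, beside 23.6% and 22.1% of all genes.

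**Figure D5:**
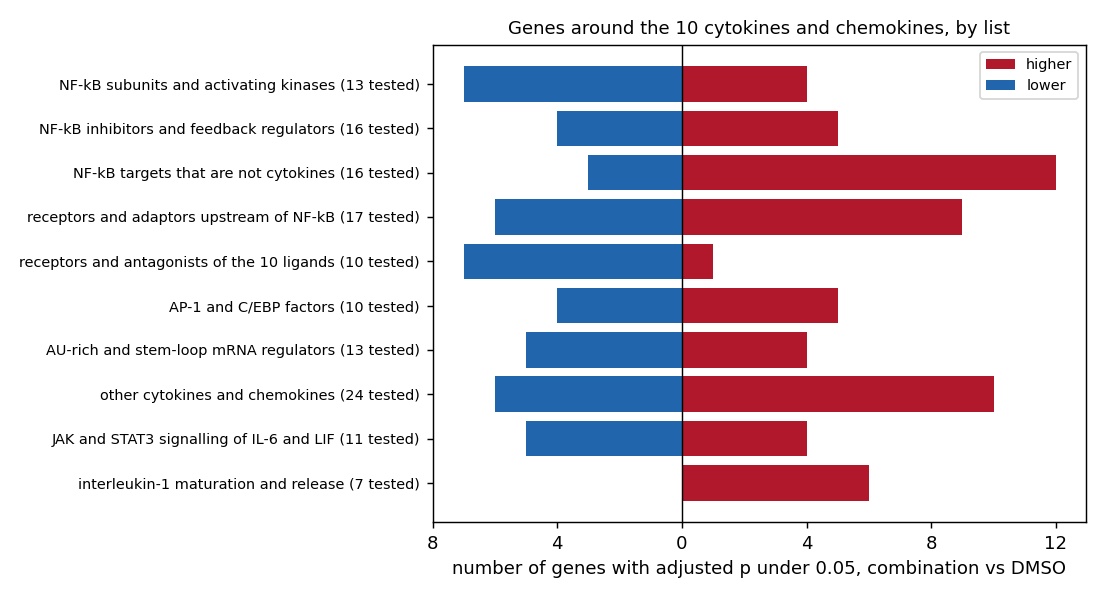
Number of genes of each list with an adjusted p under 0.05 in the combination against the DMSO group (horizontal axis), higher to the right in red and lower to the left in blue, with the number of tested genes of the list in brackets. NF-kB targets that are not cytokines lie mostly to the right (12 higher, 3 lower), the receptors of the 10 ligands mostly to the left (1 higher, 7 lower).

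As a description of pattern, the correlation of each gene with 11457 other genes of at least 50 counts was taken over the 12 libraries, which share the 4 treatments. OPTN and SPOCK1 were the genes most like IL6, with Pearson's r of 0.996 and 0.994, and 341 genes had r above 0.95 with IL6. FOXQ1 and NPAS2 were most like LIF, with r of 0.993 and 0.972, and 10 genes passed 0.95. For the other 6 genes with enough counts the highest r lay between 0.914 and 0.970, and at most 3 genes passed 0.95.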

How the data were processed

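The 12 libraries were RNA-seq libraries of 786-O cells. The authors deposited raw counts per gene and FPKM values per gene, both by symbol. The paper describes a stranded mRNA kit and the records a SMARTer mRNA kit, and the submitters' processing notes name GRCm38 and mm10, a mouse build, although the symbols are human. The aligner, counter and annotation are not given in the sources used here. Of the columns, 0 were left unused.

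Groups came from the treatment labels. Counts were tested with edgeR 4.0.16 (quasi-likelihood test, TMM factors, filterByExpr, prior count 0.125 for fold changes) in 1 fit of the 12 libraries without a block, and p-values were adjusted by Benjamini-Hochberg over 12841 genes. All tests were two-sided. A call needed an adjusted p under 0.05. CPM values were computed from the counts with TMM factors, and FPKM values served to compare genes. The alternatives were DESeq2 1.42.0, limma 3.58.1 on log2(FPKM + 1) and log2(FPKM + 0.1), upper-quartile factors, other filters, fits of the compared groups alone, a replicate block and leaving out each library. The fit was also run on counts simulated around the DMSO means, with known changes in a small part of the genes. Those counts held neither libraries that stand apart nor changes in most genes, so no conclusion on these data is drawn from that run. No pair of replicates agreed within sampling noise (chi-square per gene of 3.04 or more). Intervals and limits cover counting error or library spread only.

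The members and lists were chosen with earlier results of these data known. Named were all 10 members, per list the 3 tested genes with the smallest p in the combination against DMSO, NFKBIA and TNFAIP3, and the genes most like a member by Pearson's r of log2 CPM (prior count 2). SOCS3, CISH, ICAM1, BIRC3 and IER3 were named in addition, as genes of their lists that were lower with the combination. BCL6, JAK2 and TYK2 were named as the remaining genes of their list that were higher. Promoters came from RefSeq (GRCh38.p14), and transcripts and overlaps from GENCODE 29, compared with Biopython 1.88.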

Additional observations from a re-analysis of the deposited data

Results flagged for a closer look

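For 4 genes the effect of one drug differed according to whether the other drug was present, by the interaction term of edgeR's quasi-likelihood test, adjusted over all genes. The term was -1.00 ± 0.12 (SE) on the log2 scale for CCL2, -0.73 ± 0.10 for IL6, -0.53 ± 0.18 for CXCL3 and -0.32 ± 0.07 for CXCL1. Adding SGI-1027 to everolimus thus gave a lower log2 change (less positive or more negative) than adding it to DMSO in each of the 4 genes. For CCL2 and CXCL1 the change also differed in sign: SGI-1027 gave 0.68 in CCL2 and 0.05 in CXCL1 against DMSO, and -0.32 and -0.27 against everolimus. The CXCL1 value against DMSO did not pass the test (adjusted p = 0.422). The CXCL3 interaction kept its call in 7 of the 12 fits that left out 1 library (adjusted p up to 0.0887). All 4 terms may hold a difference in everolimus dose, on which the sources disagree. The part of cell death in the combination group was not tested.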

How the results depend on the processing

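The 9 tested genes in 7 comparisons were recomputed under 1314 gene and setting pairs: 1207 kept direction and side of the threshold, 32 lost the call, 25 gained one and 50 changed sign. No called difference changed sign. With a required absolute log2 fold change of 1, at an adjusted or an unadjusted p, the members called were 1 in each comparison with DMSO and 0 in the others and in the interaction. Leaving out 1 library gave 2 to 5 members called with everolimus against DMSO (2 without DMSO replicate 2), 4 to 6 with SGI-1027, 6 to 8 with the combination, 5 to 8 for the combination against everolimus, 3 to 4 against SGI-1027, 4 for SGI-1027 against everolimus and 3 to 5 for the interaction. Apart from left-out libraries, CXCL3 lost its SGI-1027 call with upper-quartile factors (-0.30, adjusted p = 0.0534), and CCL20 lost its call between the combination and SGI-1027 where those groups were fitted alone (-0.52, adjusted p = 0.0752). Limma on FPKM without a filter also lost the calls of CXCL3 with everolimus, with SGI-1027 and in the interaction, and of CCL20 between the combination and SGI-1027. Calls gained apart from left-out libraries were of CXCL8 (4 settings with everolimus, 3 between the combination and everolimus, 2 in the interaction) and of CCL2 (2 with the combination). Upper-quartile factors shifted the median of all genes by at most 0.07. In each setting above the cause was not tested. Depth limits IL1B, at 24 to 79 counts a library, and IL1A, with no counts.

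The replicate number does not pair the libraries: over 18 pairs with the same number the correlation of deviations ran from -0.176 to 0.0358, with 0 over 0.1. Among pairs with different numbers the highest was 0.232, between DMSO replicate 1 and SGI-1027 replicate 3, which each stood apart from their own group. Its cause was not tested. With the replicate block the members called were 4, 6, 6, 7, 4, 4 and 4 in the order of comparisons above, as without it.

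The sign changes were of differences of at most 0.11 in size, which passed the test neither before nor after. With upper-quartile factors the log2 differences became 0.064 (CXCL2), 0.051 (IL1B) and 0.072 (LIF) with everolimus, 0.051 (CXCL8) with the combination, -0.0058 (CCL20) between SGI-1027 and everolimus, and -0.0072 (CXCL2) and -0.015 (LIF) in the interaction. With only the compared groups fitted they became 0.0017 (CXCL2) and 0.0099 (LIF) with everolimus and 0.00095 (CXCL8) with the combination. Limma on log2(FPKM + 1) gave, with or without a filter, 0.013 (IL1B) and 0.0057 (LIF) with everolimus, 0.019 (CXCL8) with the combination and -0.0020 (CCL20) between SGI-1027 and everolimus, and on log2(FPKM + 0.1) 0.061, 0.0059, 0.019 and -0.0043. A minimum of 10 counts in every library gave 0.0081 (LIF with everolimus) and 0.0080 (CXCL8 with the combination), and the replicate block 0.023 (IL1B with everolimus). Left-out libraries gave ranges that span 0: -0.023 to 0.048 (CXCL1), -0.078 to 0.043 (CXCL2), -0.30 to 0.32 (IL1B) and -0.044 to 0.064 (LIF) with everolimus, -0.0094 to 0.13 (CXCL8) and -0.38 to 0.23 (IL1B) with SGI-1027, -0.070 to 0.072 (CXCL8) with the combination, -0.013 to 0.052 (CXCL1), -0.13 to 0.12 (CCL20) and -0.31 to 0.012 (IL1B) between SGI-1027 and everolimus, and -0.20 to 0.084 (CCL20) and -0.0051 to 0.10 (LIF) in the interaction.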
